A study of Drosophila melanogaster with 9 samples.

Results

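The peptidoglycan recognition proteins (PGRPs) of Drosophila melanogaster were followed as a family of 10 genes among the 14865 genes with listed counts. The members were found by gene name in the authors' annotation sheet, and no measured value enters that rule. They are PGRP-LA, PGRP-LB, PGRP-LC, PGRP-LE, PGRP-LF, PGRP-SA, PGRP-SB1, PGRP-SC1a, PGRP-SC2 and PGRP-SD. The annotation sheet describes 13 genes as PGRPs in all, and the other 3 (PGRP-LD, PGRP-SB2 and PGRP-SC1b) fall outside the choice.

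Poly(A) RNA was sequenced from whole flies of 2 genotypes, an E78A mutant (4 libraries, named E7818.37 in the authors' sample sheet) and a control (5 libraries, named w1118). The gene Eip78C encodes E78A, a nuclear receptor, and the study asked how it bears on fat uptake by the gut and on body lipids. All flies were 8 days old as adults and ate food with 8% yeast and 9% sugar, and the labels name no infection. The labels give neither the sex, nor the number of flies in a library, nor whether libraries came from separate crosses, so the spread behind each p-value is that between these samples and may be technical.

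PGRPs bind peptidoglycan, the polymer of bacterial cell walls. Some members are receptors that start the IMD pathway, which ends in the NF-kappaB factor Relish, or feed the Toll pathway, which ends in Dorsal and Dif. Both pathways switch on genes for antimicrobial peptides. Other members are amidases, enzymes that cut peptidoglycan and so lower the amount of the stimulus, and PGRP-LF blocks the receptor PGRP-LC. In flies the midgut, the fat body and the blood cells (hemocytes) are the main sites of these responses.

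The libraries held 16556267 to 19093675 counts, and 13274 genes were tested. Levels are given as CPM, counts scaled to a common library size with TMM factors. For 4 libraries the genotype tag contradicts the title, while the authors' sample sheet sides with the titles of all 9, so libraries were grouped by title. Eip78C did not check these labels, since it was at 8.86 to 12.4 CPM in the mutants and 8.57 to 15.6 CPM in the controls (log2 fold change 0.0047, SE 0.18, edgeR adjusted p = 0.993), and which part of the gene the allele alters is not given in the labels. Markers of the male accessory gland summed to 5111 to 6642 CPM in the mutants and 4371 to 8419 CPM in the controls, so RNA of this male organ was in every library. In whole flies, fewer cells of a type and less RNA per cell cannot be told apart.

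No PGRP gene passed the test for a difference between the E78A mutants and the controls. Of the 10 members, 9 passed the filter on low counts, and edgeR called 0 of these 9 at an adjusted p under 0.05, with 0 at an unadjusted p under 0.05. Over all tested genes the same test called 1.63% (0.708% higher and 0.927% lower in the mutants), and 15.1% had an unadjusted p under 0.05. DESeq2 likewise called 0 members, with 0 at an unadjusted p under 0.05, and 3.71% of all genes. With the 4 pairs of the sample sheet as a block edgeR called 0 members and 3.79% of all genes (1.81% higher, 1.98% lower). In that fit 2 members, PGRP-LC and PGRP-SD, had an unadjusted p under 0.05. The share of 15.1% belongs to edgeR with genotype alone. For DESeq2 and the block that share is not given, so their unadjusted counts, here and below, have no background. The median log2 fold change, mutant over control, was 0.0678 over the 9 members and -0.0024 over all tested genes. In all 9 members the mutant and control values overlapped, while the groups did not overlap for 6.16% of all tested genes. Summed over the 10 members, the family was at 367 ± 72.0 CPM in the mutants (SD, n = 4) and 350 ± 30.8 CPM in the controls (SD, n = 5).

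**Figure D1:**
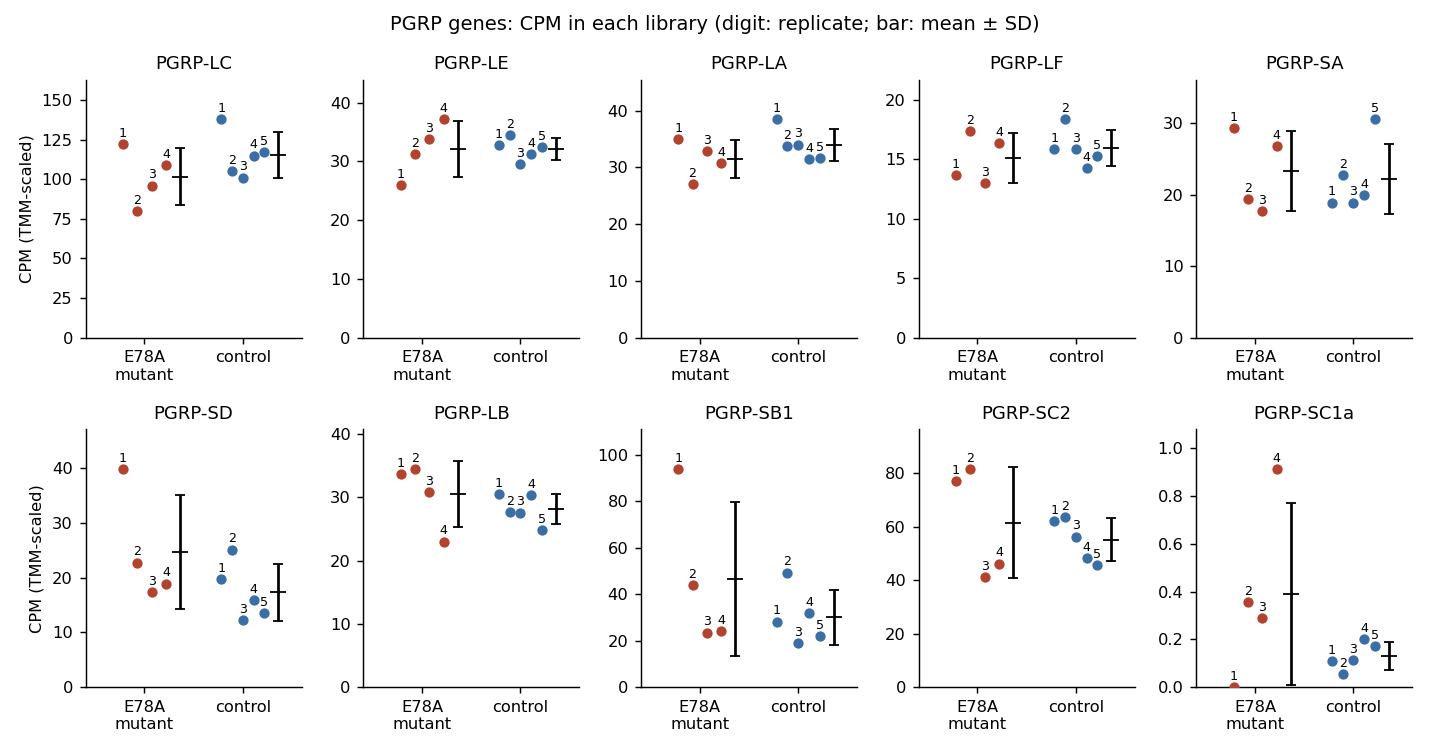
CPM of each PGRP gene in each library, E78A mutants left (red) and controls right (blue), with the replicate number over each point and the mean ± SD as a bar, on linear axes from 0. The groups overlap in every panel, and mutant replicate 1 is the highest of the 9 libraries for PGRP-SB1 (94.0 CPM) and PGRP-SD (39.8 CPM).

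PGRP-LC, the transmembrane receptor that starts the IMD pathway at the cell surface, had the most counts of the family. It was at 122, 79.8, 96.0 and 109 CPM in mutant replicates 1 to 4, against 138, 105, 101, 115 and 117 CPM in control replicates 1 to 5. The lowest 2 values were mutant and the highest was a control, with the rest intermixed. The log2 fold change was -0.18 (SE 0.12, 95% interval -0.45 to 0.09, edgeR adjusted p = 0.531). The replicate numbers of the authors' sample sheet pair 4 mutant with 4 control libraries, and in each of the 4 pairs the mutant had less PGRP-LC, at 122 against 138, 79.8 against 105, 96.0 against 115 and 109 against 117 CPM. Among the 10 members only PGRP-LC differed in the same direction in all pairs. The share of all tested genes that did so is not given. With these pairs as a block the log2 fold change of PGRP-LC was -0.23 (SE 0.06, 95% interval -0.37 to -0.10, edgeR adjusted p = 0.0679), which was not called. With genotype alone and without mutant replicate 1 it was -0.28 (SE 0.12, edgeR adjusted p = 0.340). Leaving out other libraries brought it nearer to 0. It was -0.08 (SE 0.11, edgeR adjusted p = 0.803) without mutant replicate 2 and -0.10 (SE 0.12, edgeR adjusted p = 0.736) without control replicate 1. PGRP-LC lies on chromosome 3L of BDGP6 (9338810 to 9348336, plus strand) with 10 annotated transcripts. These include isoforms with different peptidoglycan-binding domains, which counts over the whole gene do not separate.

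PGRP-LE senses peptidoglycan inside cells and also starts the IMD pathway. It had 26.0, 31.3, 33.8 and 37.2 CPM in the mutants, against 32.8, 34.5, 29.5, 31.2 and 32.4 CPM in the controls. The mutants held both the lowest and the highest value, on either side of the narrow range of the controls. The log2 fold change was -0.0018 (SE 0.10, 95% interval -0.22 to 0.22, edgeR adjusted p = 0.995), so the interval ends at a 1.16-fold difference in either direction. PGRP-LE is on chromosome X (15801153 to 15803880, minus strand).

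PGRP-LA and PGRP-LF flank PGRP-LC on the same strand of 3L, 473 bases before and 1272 bases after it. PGRP-LA, a relative that is thought to modulate the IMD pathway in epithelia, had 35.0, 27.1, 32.8 and 30.7 CPM in the mutants and 38.5, 33.8, 34.0, 31.5 and 31.6 CPM in the controls (log2 fold change -0.11, SE 0.09, edgeR adjusted p = 0.613). PGRP-LF, which lacks a signalling domain and inhibits PGRP-LC, had 13.7, 17.4, 13.0 and 16.4 CPM in the mutants and 15.9, 18.4, 15.9, 14.3 and 15.3 CPM in the controls (-0.08, SE 0.11, edgeR adjusted p = 0.785). The 3 genes of the cluster all had negative log2 fold changes, as did 6705 of the 13274 tested genes. In the pairs of the sample sheet PGRP-LA and PGRP-LF were each lower in the mutant in 3 and higher in 1. With genotype as the only term the intervals of all 3 include 0, while with the pairs as a block that of PGRP-LC lies below 0. PGRP-LA spans 9334332 to 9338336 and PGRP-LF 9349609 to 9351489. Of the 1355 exonic bases of PGRP-LF, 602 lie under exons of UGP on the opposite strand, a gene at 544 ± 152 CPM in the mutants (n = 4) and 611 ± 126 CPM in the controls (n = 5). Libraries were stranded, but no source says whether strand was used when reads were counted, and reads of PGRP-LF and UGP over the shared bases may then be mixed.

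PGRP-SA is secreted and acts in the hemolymph upstream of Toll, as the main sensor of Gram-positive bacteria. PGRP-SD is a secreted sensor too, reported as a helper of PGRP-SA, and its role need not be limited to Toll. PGRP-SA was at 29.3, 19.4, 17.7 and 26.8 CPM in the mutants, against 18.9, 22.8, 18.9, 20.0 and 30.6 CPM in the controls. Mutant replicates 1 and 4 and control replicate 5 were high, and the other 6 libraries lay at 22.8 CPM or less. The log2 fold change was 0.07 (SE 0.18, 95% interval -0.32 to 0.46, edgeR adjusted p = 0.893). PGRP-SA lies on chromosome X (11561643 to 11562779, plus strand).

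PGRP-SD had the smallest p-value of the family. It was at 39.8, 22.7, 17.3 and 18.9 CPM in the mutants, against 19.7, 25.1, 12.3, 15.9 and 13.5 CPM in the controls. Mutant replicate 1 stood above all other libraries, and the other 3 mutants lay within the range of the controls. The log2 fold change was 0.51 (SE 0.26, 95% interval -0.05 to 1.07, edgeR adjusted p = 0.383). Without mutant replicate 1 it was 0.18 (SE 0.21, edgeR adjusted p = 0.756). PGRP-SD lies on 3L (7651180 to 7651900, plus strand), in an intron of CG32373 on the same strand, a gene at 3.20 ± 0.354 CPM in the mutants (n = 4) and 2.98 ± 0.941 CPM in the controls (n = 5). Its last 35 bases overlap CG7492 on the other strand.

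**Figure D2:**
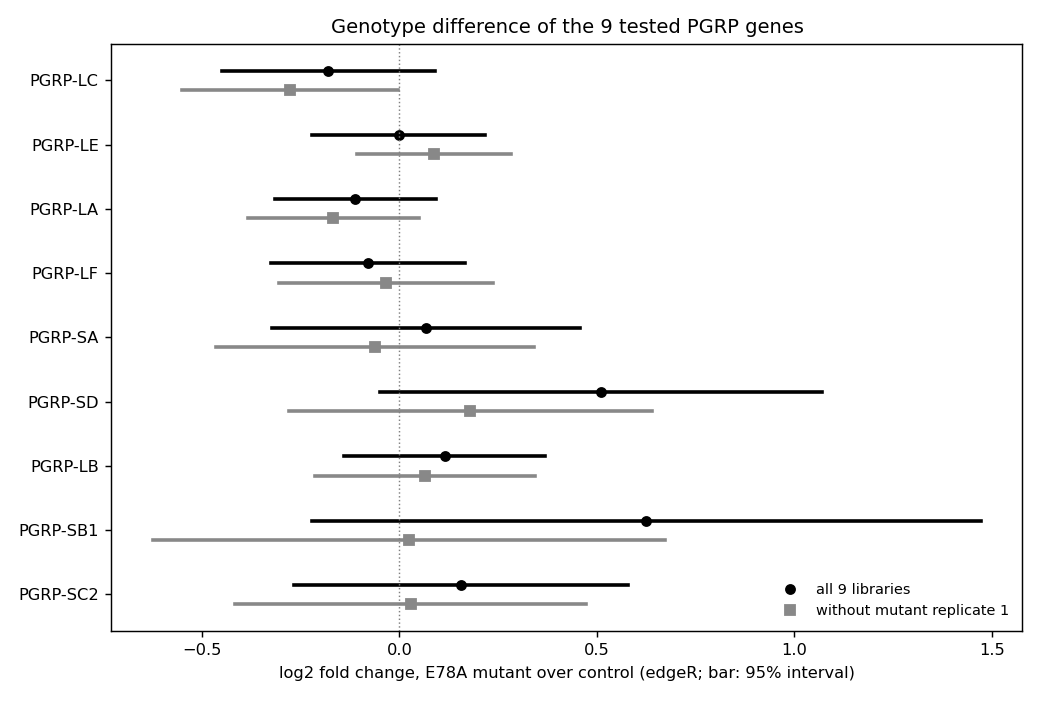
Log2 fold change, E78A mutant over control, of the 9 tested PGRP genes with its 95% interval from edgeR, for all 9 libraries (black circles) and without mutant replicate 1 (grey squares). With all libraries and genotype as the only term every interval includes 0. Without mutant replicate 1 the value of PGRP-SB1 is 0.02 in place of 0.63, that of PGRP-SD 0.18 in place of 0.51, and the interval of PGRP-LC ends just below 0.

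Among the amidases, PGRP-SB1 had the largest log2 fold change of the 9 tested members and the widest spread. This secreted amidase, which also kills bacteria, was at 94.0, 44.1, 23.6 and 24.3 CPM in the mutants, against 28.3, 49.4, 19.2, 31.9 and 21.9 CPM in the controls. Mutant replicate 1 was 4.89 times the lowest library, control replicate 3, and the other 3 mutants lay within the control range. The log2 fold change was 0.63 (SE 0.39, 95% interval -0.22 to 1.47, edgeR adjusted p = 0.487), and without mutant replicate 1 it was 0.02 (SE 0.30, edgeR adjusted p = 0.983). PGRP-SB1 lies on 3L (16727299 to 16727989, minus strand).

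PGRP-LB, the amidase that degrades the peptidoglycan sensed by the IMD receptors and so restrains the pathway, had 33.7, 34.5, 30.8 and 23.0 CPM in the mutants, against 30.5, 27.7, 27.6, 30.3 and 24.8 CPM in the controls. The mutants reached both above and below the controls. Its log2 fold change was 0.11 (SE 0.12, 95% interval -0.14 to 0.37, edgeR adjusted p = 0.683). PGRP-LB lies on 3R (11452849 to 11460552, minus strand) with 6 transcripts, which make secreted and intracellular forms that gene counts do not separate. It lies wholly within CG17230 on the other strand, with which it shares 0 exonic bases.

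PGRP-SC2, an amidase of the gut, was at 77.1, 81.6, 41.1 and 46.2 CPM in the mutants, against 62.2, 63.6, 56.3, 48.2 and 45.6 CPM in the controls. The mutants split into a high and a low pair, with 4 of the 5 controls between them. Their paired controls split the same way, with 62.2 and 63.6 CPM in the partners of mutant replicates 1 and 2 and 48.2 and 45.6 CPM in those of mutant replicates 3 and 4. The log2 fold change was 0.16 (SE 0.19, 95% interval -0.27 to 0.58, edgeR adjusted p = 0.751). The 2 high mutants were replicates 1 and 2, which also had the higher midgut marker sums of the 4. Those sums were 12040, 11560, 9298 and 7210 CPM in mutant replicates 1 to 4, against 12600, 12890, 12710, 12660 and 9725 CPM in the controls, over 25 marker genes, of which 24 were tested. With genotype alone as the term, edgeR called 0 of the 24 higher and 1 lower, while DESeq2 called 2, and edgeR with the pairs as a block called 1 higher and 7 lower. Over all tested genes these fits called 1.63%, 3.71% and 3.79%. The gene called lower with genotype alone was the protease gene Jon99Ciii, at 528 ± 227 CPM in the mutants and 1140 ± 193 CPM in the controls (log2 fold change -1.11, edgeR adjusted p = 0.0494, and 0.00925 with the block). The part of the midgut in the PGRP-SC2 values was not tested. PGRP-SC2 lies on 2R (8716950 to 8717695, plus strand).

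PGRP-SC1a, a gut amidase 6629 bases from PGRP-SC2 on the same strand of 2R (8709733 to 8710320), was barely counted. The mutants had 0, 6, 5 and 15 counts and the controls 2, 1, 2, 4 and 3, and the gene did not pass the filter on low counts. A count of 0 in mutant replicate 1 allows up to 3 counts, or 0.171 CPM, by counting error. Mutant replicate 4 held 15 of the 26 mutant counts, and the other 3 mutants together had 11, against 12 in the 5 controls. Fitted without that filter, its log2 fold change was 1.50 (SE 0.79, edgeR adjusted p = 0.418). PGRP-SC1b, a near-identical copy next to it, had 30 counts over the mutants and 42 over the controls. No source says how the authors counted reads that match several genes, so the level of PGRP-SC1a is uncertain.

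The members spanned a wide range of levels. Per kilobase of the merged exons of each gene, PGRP-SC2 was the highest at 82.4 ± 27.9 CPM per kb in the mutants (SD, n = 4) and 74.0 ± 10.8 CPM per kb in the controls (SD, n = 5). PGRP-SB1 came next at 74.6 ± 53.0 and 48.4 ± 19.1 CPM per kb in the mutants and the controls. PGRP-SC2 exceeded PGRP-SB1 in 8 of the 9 libraries, and PGRP-SB1 exceeded the third gene, PGRP-LC, in 9 of 9.

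In the middle of the order the levels were close. The means over the 9 libraries were 29.2 CPM per kb for PGRP-LC, 28.6 for PGRP-SD, 22.3 for PGRP-SA, 16.5 for PGRP-LB, 15.6 for PGRP-LA and 15.5 for PGRP-LE. Neighbours here did not keep their order, since PGRP-LC was above PGRP-SD in 6 of 9 libraries, PGRP-SD above PGRP-SA in 6, PGRP-LB above PGRP-LA in 4 and PGRP-LA above PGRP-LE in 3. PGRP-SA was above PGRP-LB in 8. PGRP-LF at 11.5 was below PGRP-LE in 9 of 9 libraries, and PGRP-SC1a at 0.418 CPM per kb was the lowest in all. The scale matters for genes with many isoforms. Per kilobase of the canonical transcript alone, PGRP-LC had 53.6 and PGRP-LB 31.5 CPM per kb, which put PGRP-LB above PGRP-SD and PGRP-SA, while PGRP-LC kept its place.

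**Figure D3:**
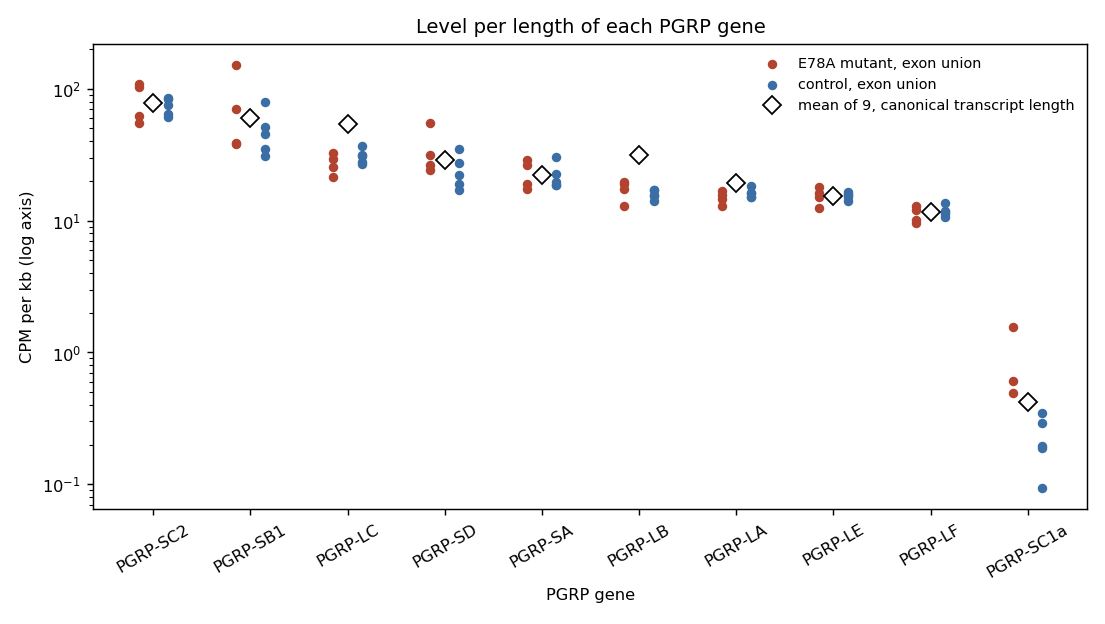
CPM per kb of merged exons for each PGRP gene on a log axis, each point a library, E78A mutants (red) left of controls (blue), with the mean of the 9 libraries per kb of the canonical transcript as an open diamond. The genes run from PGRP-SC2 at 55.0 to 109 CPM per kb down to PGRP-SC1a, whose mutant replicate 1 is at 0 and not drawn.

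The spread between libraries of 1 genotype differed over the family. The SD of log2 CPM around the genotype means was 0.14 for PGRP-LA, 0.16 for PGRP-LE, 0.16 for PGRP-LF, 0.20 for PGRP-LB and 0.22 for PGRP-LC. Those values lay between the 31.3 and the 63.2 percentile of all tested genes. The members with the letter S (the short class) varied more, with 0.32 for PGRP-SA, 0.37 for PGRP-SC2, 0.47 for PGRP-SD and 0.73 for PGRP-SB1, at the 79.8, 84.1, 90.7 and 97.7 percentiles. All 4 tested S members thus lay above all 5 tested members with the letter L (the long class), which include PGRP-LB with its secreted forms. For PGRP-SB1 and PGRP-SD the largest deviation from the genotype mean was that of mutant replicate 1, at 1.26 and 0.77.

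PGRP-SB1 and PGRP-SD deviated alike across libraries, though not past the correction for the relations computed. Across the 9 libraries, as deviations from the genotype means, Pearson's r was 0.952 (exact permutation within genotypes, two-sided p = 0.00174, adjusted p = 0.125 over 72 relations). Spearman's rho was 0.867 (exact permutation p = 0.00417, adjusted p = 0.300), and r was 0.810 without mutant replicate 1 and control replicate 2, the farthest out. PGRP-SB1 and Mal-B1, a maltase gene, and CG33511 were the 3 genes whose deviations were most like those of PGRP-SD over the 9 libraries, at r = 0.952, 0.958 and 0.952, out of 13274 tested genes. The pairs of the sample sheet hold 2 libraries each, too few for a relation within a pair. The permutations exchange libraries freely within a genotype and so ignore what paired libraries share, and all permutation p-values given here may be too small for that reason.

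The deviations of PGRP-SC2, which had the same sign in both libraries of all 4 pairs, were correlated with those of PGRP-SD (r = 0.703, exact permutation p = 0.0458, adjusted p = 0.650, rho = 0.717, exact permutation p = 0.0486, adjusted p = 0.545, r = 0.827 without mutant replicates 2 and 3) and with the midgut marker sum (r = 0.790, exact permutation p = 0.0802, adjusted p = 0.683, rho = 0.883, exact permutation p = 0.0521, adjusted p = 0.545, r = 0.873 without the same 2). PGRP-LB followed the midgut marker sum at r = 0.922 (exact permutation p = 0.0160, adjusted p = 0.575, rho = 0.717, exact permutation p = 0.0833, adjusted p = 0.545), and at 0.625 without control replicate 5 and mutant replicate 4. Of the 36 relations between members and the 36 between members and summed lists, 0 passed an adjusted p of 0.05. Over the 36 relations between members, 21 were positive and the median r was 0.120.

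**Figure D4:**
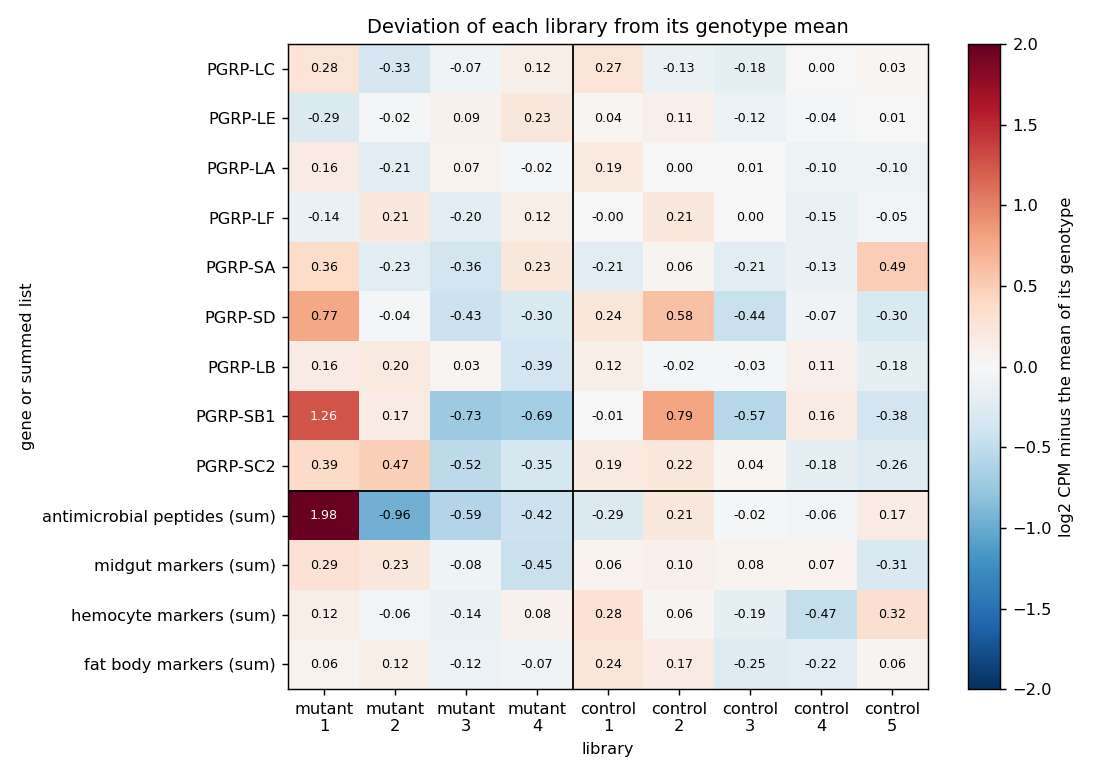
Deviation of log2 CPM from the mean of its genotype for the 9 tested PGRP genes and 4 summed marker lists, E78A mutant libraries left of the line and controls right of it, red above and blue below the mean. Mutant replicate 1 is high for PGRP-SB1 (1.26), PGRP-SD (0.77) and the antimicrobial peptides (1.98), and PGRP-LA, PGRP-LC, PGRP-LE, PGRP-LF and PGRP-LB stay within 0.39 of 0.

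The antimicrobial peptide genes, the outputs of the IMD and Toll pathways, did not pass the test for a genotype difference either. Of 14 listed genes 12 were tested, and edgeR called 0, with 6 at an unadjusted p under 0.05, while DESeq2 called 0 with 1. Over all tested genes 15.1% had an unadjusted edgeR p under 0.05. In 9 of the 12 tested genes the highest of the 9 libraries was mutant replicate 1, which was the highest library for 9.58% of all tested genes. DptA, which encodes a diptericin against Gram-negative bacteria, was at 108, 3.51, 3.80 and 2.61 CPM in the mutants, against 3.21, 3.08, 1.83, 5.23 and 5.72 CPM in the controls (log2 fold change 2.95, SE 0.99, edgeR adjusted p = 0.182). The attacin gene AttC was at 225, 13.3, 14.7 and 15.4 CPM in the mutants, against 13.5, 22.2, 12.6, 14.4 and 22.4 CPM in the controls (1.98, SE 0.76, edgeR adjusted p = 0.241). For both genes the other 3 mutants lay within or next to the control range. AttA had a log2 fold change of 1.55 (SE 0.58, edgeR adjusted p = 0.226), with 55.7 CPM in mutant replicate 1. Of the 6 genes under an unadjusted p of 0.05, the defensin gene Def had the opposite sign, with 3.64, 1.78, 1.84 and 1.40 CPM in the mutants, against 4.92, 2.64, 4.07, 2.89 and 3.09 CPM in the controls (-0.69, SE 0.29, edgeR adjusted p = 0.289, named after its values were seen). Mutant replicate 1 was the highest mutant for Def too, but within the control range, and without it the log2 fold change was -1.07 (SE 0.26, edgeR adjusted p = 0.0800).

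Summed over the list, the antimicrobial peptide genes were at 762.8, 99.77, 128.7 and 144.7 CPM in the mutants, against 113.2, 160.2, 136.5, 133.4 and 156.3 CPM in the controls. The median log2 fold change of the 12 tested genes was 0.84 with all libraries and -0.22 without mutant replicate 1, when 1 of the 12 was positive. The same library thus held the highest values of PGRP-SB1, PGRP-SD and the antimicrobial peptides. PGRP-LB, by contrast, was at 33.7 CPM there and 34.5 CPM in mutant replicate 2. The marker sums of hemocytes and fat body in mutant replicate 1 were 814.1 and 8647 CPM, within the control ranges of 536.8 to 932.5 and 7348 to 10350 CPM. In the relation of deviations with the antimicrobial sum, r was 0.695 for PGRP-SB1 (exact permutation p = 0.173, adjusted p = 0.683, rho = 0.517, exact permutation p = 0.236, adjusted p = 0.772) and 0.667 for PGRP-SD (exact permutation p = 0.160, adjusted p = 0.683, rho = 0.367, exact permutation p = 0.358, adjusted p = 0.871). Without mutant replicate 1 and control replicate 2 they were -0.141 and -0.190, so both relations rest on those libraries. PGRP-SA had the smallest p of the 9 members with that sum, at r = 0.615 (exact permutation p = 0.0274, adjusted p = 0.650, rho = 0.733, exact permutation p = 0.0111, adjusted p = 0.400), and r was 0.347 without mutant replicate 1 and control replicate 5. PGRP-LE went the other way, at r = -0.697 (exact permutation p = 0.281, adjusted p = 0.756, rho = -0.350, exact permutation p = 0.467, adjusted p = 0.908), and at 0.0212 without mutant replicates 1 and 4.

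**Figure D5:**
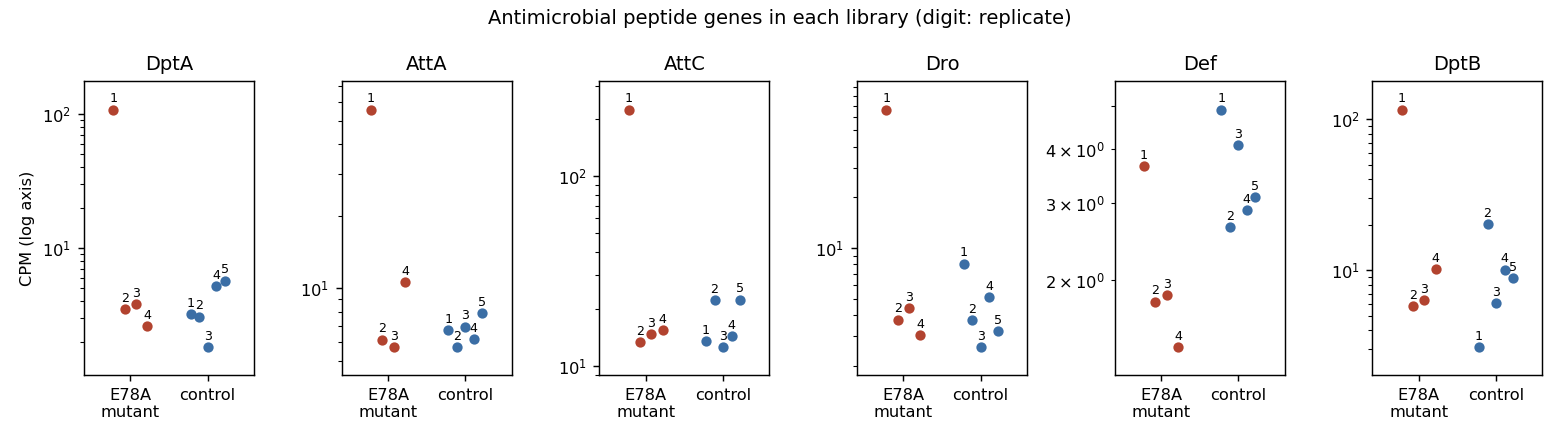
CPM of the 6 antimicrobial peptide genes with an unadjusted edgeR p under 0.05 (DptA, AttA, AttC, Dro, Def and DptB) in each library on log axes, E78A mutants left (red) and controls right (blue), with the replicate number over each point. Mutant replicate 1 stands above all other libraries in every panel but that of Def, at 108 CPM for DptA and 225 CPM for AttC. For Def mutant replicate 1 (3.64 CPM) lies within the control range, so the groups overlap, and the other 3 mutants (1.40 to 1.84 CPM) lie below all controls.

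The genes between the receptors and these outputs held no called gene. Of 14 IMD pathway genes edgeR called 0 (DESeq2 0, with 1 at an unadjusted p under 0.05), and the median log2 fold change was 0.05. In edgeR 1 had an unadjusted p under 0.05, against 15.1% of all tested genes. The 3 with the smallest p were Diap2, a ubiquitin ligase needed for signalling (0.18, edgeR adjusted p = 0.230), the adaptor imd (0.15, adjusted p = 0.373) and Tab2, a partner of the kinase Tak1 (0.15, adjusted p = 0.469). Diap2 was at 122 ± 4.75 CPM in the mutants (n = 4) and 108 ± 6.80 CPM in the controls (n = 5). The NF-kappaB gene Rel had 169 ± 31.3 CPM in the mutants and 155 ± 23.1 CPM in the controls (0.12, edgeR adjusted p = 0.703), and was named after its values were seen. Its values were 207, 131, 168 and 170 CPM in the mutants and 191, 151, 137, 163 and 134 CPM in the controls, with mutant replicate 1 the highest.

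Of 10 inhibitors of the IMD pathway edgeR called 0 (DESeq2 0, with 3 at an unadjusted p under 0.05), and the median log2 fold change was 0.10. In edgeR 3 had an unadjusted p under 0.05, against 15.1% of all tested genes. Those 3 were cad, a homeobox factor that restrains antimicrobial genes in the gut (-0.23, edgeR adjusted p = 0.206), nub, a POU factor with a like role (0.49, adjusted p = 0.220), and the deubiquitinase gene scny (0.18, adjusted p = 0.224). The gene cad was at 44.9 ± 3.67 CPM in the mutants (n = 4) and 52.8 ± 4.11 CPM in the controls (n = 5). The gene pirk, whose product removes PGRP-LC from the cell surface, had 42.1, 18.3, 22.8 and 40.1 CPM in the mutants and 35.7, 18.6, 14.2, 12.5 and 25.8 CPM in the controls (0.53, edgeR adjusted p = 0.467, named after its values were seen). It was high in mutant replicates 1 and 4 and in control replicate 1, and the groups overlapped.

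Of 23 Toll pathway genes edgeR called 0 (DESeq2 0, with 5 at an unadjusted p under 0.05), and the median log2 fold change was 0.09. In edgeR 5 had an unadjusted p under 0.05, against 15.1% of all tested genes. The protease gene grass, which acts downstream of PGRP-SA, was at 28.4, 32.4, 30.2 and 32.0 CPM in the mutants, against 25.7, 26.1, 26.8, 22.6 and 25.6 CPM in the controls (0.28, SE 0.08, edgeR adjusted p = 0.116). The groups did not overlap, with all mutants above the controls, as was so for 2.79% of all tested genes. The protease homologue sphinx1 was at 8.66 ± 0.967 CPM in the mutants (n = 4) and 12.1 ± 2.15 CPM in the controls (n = 5), with a log2 fold change of -0.48 (edgeR adjusted p = 0.130). All mutants lay below all controls, as was so for 3.37% of all tested genes. The serpin gene Spn27A, a protease inhibitor, had 0.31 (edgeR adjusted p = 0.154).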

How the data were processed

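Counts per gene and library were taken from the authors' deposited raw count sheet, whole numbers over 14865 genes. Per the submitters' processing notes the tools included featureCounts 1.6.3, STAR 2.6.1b, cutadapt 1.16 and DESeq2 1.20.0 and 1.22.2, with BDGP6 and dm6 as builds, and no roles are stated. The authors' deposited comparison holds log2 fold changes, p-values and a mean scaled count (signal) with DESeq2's column names, per the file headers, and was used only in the closing observations. The authors' sample sheet also gives size factors (a signal), used for that mean alone. Replicates were numbered in accession order.

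The main test was edgeR's quasi-likelihood test (version 4.0.16, R 4.3.3) with genotype as its only term, TMM scaling, and genes kept by filterByExpr at a minimum count of 10. P-values were adjusted by Benjamini-Hochberg over all 13274 tested genes, with a threshold of 0.05. Standard errors are the log2 fold change over the root of F. Deviations used log2 CPM with a prior count of 2 and 2880 permutations within genotypes. Exon lengths came from the Ensembl annotation of BDGP6, whose coordinates equal those of the sheet for all 10 members. Intervals and floors of 3 counts cover counting error only where they concern counts, and PCR copies were not marked.

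Deviations of libraries with the same number in the authors' sample sheet correlated across genes at 0.207, 0.214, 0.208 and 0.277, so those numbers were taken to pair 4 mutant and 4 control libraries. Control replicate 3 has no partner and was left out of the fit with the pairs as a block. The genes named are the members, of each pathway list the called genes and the 3 with the smallest p, genes that overlap a member or copy it, and the 3 genes most like the member with the smallest p. All 136 list entries matched the annotation, 134 by symbol and 2 by synonym. The members, lists and alternatives (DESeq2 1.42.0, other scaling and filters, leaving out each library, the block and other groupings) were chosen with earlier results of these data known. The fit was tested on simulated data.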

Additional observations from a re-analysis of the deposited data

Results flagged for a closer look

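Among 58 groups of values examined for a library far from the others, chance would set apart about 1 in 20, and 6 were set apart, 0 of them among the 20 groups of PGRP values. The pathway genes examined were those with the smallest p of their lists, and the antimicrobial sum contains DptA, AttA and AttC. The groups are thus not independent, and the 6 cannot be set against that share. In the mutants, replicate 1 was far above the other 3 for DptA (107.8 CPM), AttA (55.69 CPM), AttC (225.3 CPM) and the summed antimicrobial peptides (762.8 CPM). In the controls, replicate 2 was far above the others for sphinx1 (15.82 CPM), and replicate 5 was far below them for the summed midgut markers (9725 CPM).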

How the results depend on the processing

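The count of 0 called PGRP genes held in all 18 alternatives. Since the main fit called 1.63% of all genes and the block 3.79%, 0 of 9 members is close to these shares and says little. Of the 162 values of single members 151 kept their sign. The 11 others, all in PGRP-LE, PGRP-SA, PGRP-SB1 and PGRP-SC2, changed sign. PGRP-LE ran from -0.0824 to 0.0874 with 1 library left out, PGRP-SA from -0.0617 to 0.2107 and PGRP-SC2 from -0.0095 to 0.308. With the replicate block without pair 1, chosen after seeing the data, PGRP-LE was at 0.0571, PGRP-SA at -0.2022 and PGRP-SB1 at -0.1563, and 2 Toll pathway genes were called, grass (0.35, edgeR adjusted p = 0.0495) and sphinx1 (-0.62, adjusted p = 0.0468). The calls over all genes were 217 (94 higher, 123 lower) and moved more. DESeq2 gave 492 (234 and 258), the replicate block 500 (239 and 261), that block without pair 1 585 (303 and 282), the 5 libraries whose labels agree 21 (13 and 8), and grouping by the genotype tag 0 (0 and 0), with 171 genes and 0 members at an unadjusted p under 0.05 (edgeR). With 1 library left out they ran from 127 to 291 (53 to 139 higher, 74 to 152 lower), with 137 without mutant replicate 3 and 127 without mutant replicate 4, and 62 and 61 higher without mutant replicate 2 and control replicate 4. The causes were not tested. With the replicate block 0 members were called and 2 had an unadjusted p under 0.05, PGRP-LC (log2 fold change -0.23, SE 0.06, edgeR adjusted p = 0.0679) and PGRP-SD (0.37, SE 0.16, adjusted p = 0.274), and the block changed no call of a member. No share of all genes at that unadjusted p is given for the block. Of the members only PGRP-SC1a, with 38 counts in all, did not pass the filter on low counts.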

Other observations

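The authors' deposited table also names sets of genes, and 0 of the 10 PGRP genes are in its E7818.37 sets, which hold 3.4% of all genes there, while 6 carry the label "DHR393.48 up" and 1, PGRP-SC2, the label "DHR393.48 down". The first label is carried by 7.23% and the second by 11.8% of all 14865 genes in the authors' deposited table. The 6 are PGRP-LA, PGRP-LB, PGRP-LF, PGRP-SA, PGRP-SB1 and PGRP-SD. No source says what the label compares, and its libraries were not analysed here. In the authors' deposited table the mean scaled count of PGRP-SD was 621, against 369 over the 9 libraries, and those of PGRP-LF and PGRP-SB1 were both 1.27 times the mean over the 9. Within 1% of the mean of the 9 were 2649 genes. No source says which libraries entered the deposited means. The lowest adjusted p of a member in the authors' deposited table was 0.462, for PGRP-SC1a.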
